A study of Mus musculus with 12 samples.

Results

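The comparison set 3 arrays of wild-type helper T cells transfected with miR-29 inhibitors against 3 arrays of wild-type cells transfected with control inhibitors. The 6 arrays were chosen by the genotype and oligonucleotide in the sample labels, from 12 arrays in the series. All cells came from C57BL/6 mice aged 7 weeks. They were activated through CD3 and CD28 for 65 hours, kept in IL-2 for 48 hours more, electroporated on days 1 and 4, and lysed on day 5, 24 hours after the second transfection. The other 6 arrays held DGCR8-deficient cells given miR-29b or a control miRNA, 3 arrays each, and were used for the spread and for one comparison at the end. The titles number the replicates 2, 3 and 4 in each genotype, and wild-type arrays with the same number were treated as a pair from 1 mouse. The titles themselves do not say that both wild-type arrays of a number came from the same mouse. The culture was measured in bulk, the share of cells that took up the oligonucleotide is not given in the sources used here, nor are the sequences of the inhibitors or which members of the family they target. In bulk RNA, fewer cells of a type and less RNA per cell cannot be told apart.

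MicroRNAs guide Argonaute proteins to partly complementary sites, mostly in the 3' untranslated regions of mRNAs, and lower the stability and translation of those mRNAs. An inhibitor is an antisense oligonucleotide that occupies the mature microRNA, so that its targets are released, or derepressed. The miR-29 family is known for targeting collagens and the DNA methyltransferases, and in helper T cells for restraining interferon-gamma and the Th1 regulators T-bet and Eomes. The mature sequences are printed from RefSeq (GRCm38.p6) because an inhibitor pairs with the mature strand, and because the shared seed, in capitals (bases 2 to 8), sets which mRNAs are targets.
miR-29a-3p: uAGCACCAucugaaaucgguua
miR-29b-3p: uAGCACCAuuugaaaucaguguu
miR-29c-3p: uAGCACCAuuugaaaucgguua
The seed AGCACCA, which pairs with TGGTGCT in a target's DNA sequence, was shared by these 3 mature mouse miRNAs alone in the RefSeq table. Counted from the 5' end, miR-29c differs from miR-29a by C10U, and miR-29b by C10U, G18A, U21G and A22U within the shared length, since miR-29b has 23 bases and the others have 22. miR-29a is read from chr6:31062673-31062694 on the minus strand and miR-29c from chr1:195037600-195037621 on the plus strand. miR-29b has a copy in each cluster, at chr6:31063025-31063047 (minus) and chr1:195037091-195037113 (plus). The arrays measured mRNA, so the level of miR-29 itself was not measured here.

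Levels below are log2 signals after subtraction of each array's own 75th percentile, and differences are inhibitor minus control on that scale, so that 1 is a doubling. Between 27286 and 31400 of 41174 probes were well above background on the 6 arrays, and 14704 genes were tested. All 16 measured CD4 T cell genes were well above background on all 6 arrays, and their summed level was 8.79 to 9.04 on control arrays and 8.95 to 8.97 on inhibitor arrays. This does not measure purity, since 11 of 13 B cell markers and 4 of 6 CD8 T cell markers also cleared background on all 6. The control and inhibitor arrays of each mouse lay on one slide and were scanned on one day, so the differences within pairs are also differences within these batches. The p-values come from limma fitted to all 12 arrays with the mouse as a block and adjusted over all genes tested by the Benjamini-Hochberg method.

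Differences between inhibitor and control arrays were small. No gene passed an adjusted p of 0.05 (0 of 14704 tested, 0%), and the smallest adjusted p was 0.177. An unadjusted p under 0.05 was found for 512 genes (3.48%), 347 of them higher (2.36%) and 165 lower (1.12%) with the inhibitors. Without the mouse as a block, 61 genes (0.415%) had an unadjusted p under 0.05. Of 14630 genes measured in all pairs, 2144 (14.7%) were higher in 3 of 3 pairs and 1298 (8.87%) were lower in 3 of 3. All values of the inhibitor group lay above all values of the control group for 240 genes (1.64%), and below them for 168 (1.15%).

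Among the 12624 genes whose chosen probe cleared background on every wild-type array, the differences within a pair had an SD over genes of 0.28, 0.27 and 0.25 in mice 2, 3 and 4. Control arrays of different mice differed more, with an SD of 0.31 to 0.59 over the same genes. Across these genes, which are not independent replicates, the differences of mice 2 and 3 correlated at r = 0.22, those of mice 2 and 4 at 0.03 and those of mice 3 and 4 at -0.17. The ordering of genes by difference was thus weakly shared by mice 2 and 3, and not by the other pairs of mice. The 95% confidence interval of the difference, before adjustment for many genes, lay within -1 to 1 for 96.1% of these genes and within -0.5 to 0.5 for 74.8%. For the 2006 genes that were dim on 1 or more of the 6 arrays, these shares were 39.4% and 5.38%, so the differences of dim genes were known less precisely. H2-Aa was the gene among the 12624 that differed by more than 1 in all 3 pairs.

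The curated miR-29 targets leaned upward. Of 83 listed targets, 71 were measured, 8 had probes too dim and 4 had no matched probe. Their median difference was 0.07, against 0.02 over all genes, and 46 of 71 (64.8%) had a mean difference above 0, against 54.8% of all genes. In 3 of 3 pairs, 24 targets (33.8%) were higher, against 14.7% of all genes, and 3 (4.23%) were lower, against 8.87%. The median of the targets was 0.16 in mouse 2, 0.16 in mouse 3 and 0.06 in mouse 4, where the medians of all genes were 0.04, 0.03 and 0.01. The lean was smallest in mouse 4. Single targets ranged from -0.68 to 1.04, and from -0.68 to 0.59 among the 59 that were well above background on all 6 arrays. The upper end of the 95% confidence interval was under 1, a doubling, for 64 of the 71. No target passed the adjusted threshold. At an unadjusted limma p under 0.05, 11 of the 71 were higher and 2 lower, against 2.36% and 1.12% of all genes. The groups failed to overlap for 3 of the 71, all higher with the inhibitors. Over all genes they failed to overlap for 1.64% higher and 1.15% lower. With background corrected from the median spot signals (normexp), 15 targets (21.1%) were higher in 3 of 3 pairs against 9.67% of all genes, and the median was 0.01 against -0.05. After that correction 7 of the 71 targets were lower in 3 of 3 pairs, where the main fit had 3. Over all genes 1522 were lower, where the main fit had 1298. The low count of lower targets was thus not kept.

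**Figure D1:**
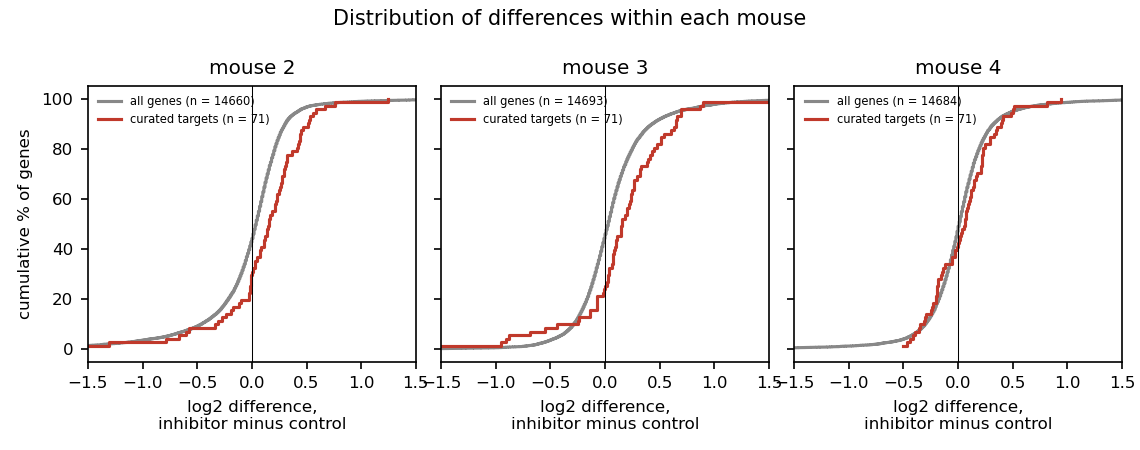
Cumulative percentage of genes (y axis) by log2 difference, inhibitor minus control within a mouse (x axis), for all genes (grey) and the 71 curated miR-29 targets (red), with one panel per mouse. The red curve lies to the right of the grey one near its middle in each panel, with target medians of 0.16, 0.16 and 0.06.

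Among the enzymes of DNA methylation and demethylation, of 6 listed, 4 were measured, and the median difference was 0.25. All 4 had a mean difference above 0, against 54.8% of all genes. In 3 of 3 pairs 3 (75%) were higher and 0 lower, against 14.7% and 8.87% of all genes. Tet1 and Tet3 were not measured.

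Dnmt3b, a de novo DNA methyltransferase (chr2:153649411-153687730, RefSeq gene span on GRCm38.p6), had levels of -1.18, -0.96 and -1.12 on the control arrays of mice 2, 3 and 4 and of -0.66, -0.71 and -0.64 on the inhibitor arrays. Every inhibitor array lay above every control array. The difference was 0.42 ± 0.09 (SE, n = 3 pairs), or 1.34-fold with a 95% confidence interval of 1.14 to 1.56. The unadjusted limma p was 0.00371, and after adjustment over all genes p was 1. Over the alternative settings the difference ran from 0.34 to 0.50.

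Dnmt3a, the other de novo methyltransferase (chr12:3801559-3914443), stood at 1.09, 0.80 and 1.05 on control arrays and 1.22, 1.04 and 1.34 on inhibitor arrays. Each mouse was higher with the inhibitors, and the groups overlapped. The difference was 0.22 ± 0.08 on the brightest probe, and 0.28 and -0.08 on 2 other probes. The probes of this gene therefore disagreed in direction, and averaging them gave 0.14.

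Tdg, a DNA glycosylase that acts in active demethylation, was at 2.50, 1.64 and 2.41 with the control and 2.73, 1.82 and 2.80 with the inhibitors, a difference of 0.27 ± 0.11. Mouse 3 was low on both arrays, and each mouse was higher with the inhibitors. Tet2, which oxidises 5-methylcytosine, differed by 0.27 in mouse 2, 0.54 in mouse 3 and -0.12 in mouse 4. Its mean of 0.23 ± 0.15 was 0.08 without mouse 3 and 0.41 without mouse 4.

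The Th1 and immune targets had a median difference of 0.21. In 3 of 3 pairs 3 of 7 measured (42.9%) were higher and 0 lower, against 14.7% and 8.87% of all genes. The higher ones were Ifng and the transcription factors Eomes and Tbx21. Eomes and Tbx21 were named as miR-29 targets by the study of these samples, so their place on the list is not independent evidence of their direction.

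Eomes (chr9:118478186-118486132) was dim, at -4.18, -4.68 and -4.60 on control arrays and -3.86, -4.17 and -3.65 on inhibitor arrays. The groups did not overlap, but the lowest inhibitor array, at -4.17, lay barely above the highest control array, at -4.18. The difference was 0.59 ± 0.15, or 1.51-fold with an interval of 1.18 to 1.93. The unadjusted limma p was 0.00666 and the adjusted p was 1. The difference was 0.12 after normexp background correction and 0.38 in the authors' deposited log2 values.

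Ifng (chr10:118441046-118445894), which encodes the cytokine interferon-gamma, was at -2.27, -2.87 and -2.67 with the control and -1.98, -2.54 and -1.86 with the inhibitors. The control of mouse 2 lay above the inhibitor array of mouse 3, so the groups overlapped, although each mouse was higher with the inhibitors. The difference was 0.47 ± 0.20, with a 95% confidence interval of -0.01 to 0.96, and a second probe gave 0.49. The pair differences were 0.29, 0.33 and 0.81, and normexp gave a mean of 0.31. Tbx21, which encodes T-bet (chr11:97098007-97115331), was bright, at 3.67, 2.29 and 3.93 with the control and 3.98, 2.53 and 4.0 with the inhibitors. The 3 pair differences of 0.31, 0.24 and 0.07 were small beside the gap between mouse 3 and the other mice. Their mean was 0.21 ± 0.16.

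**Figure D2:**
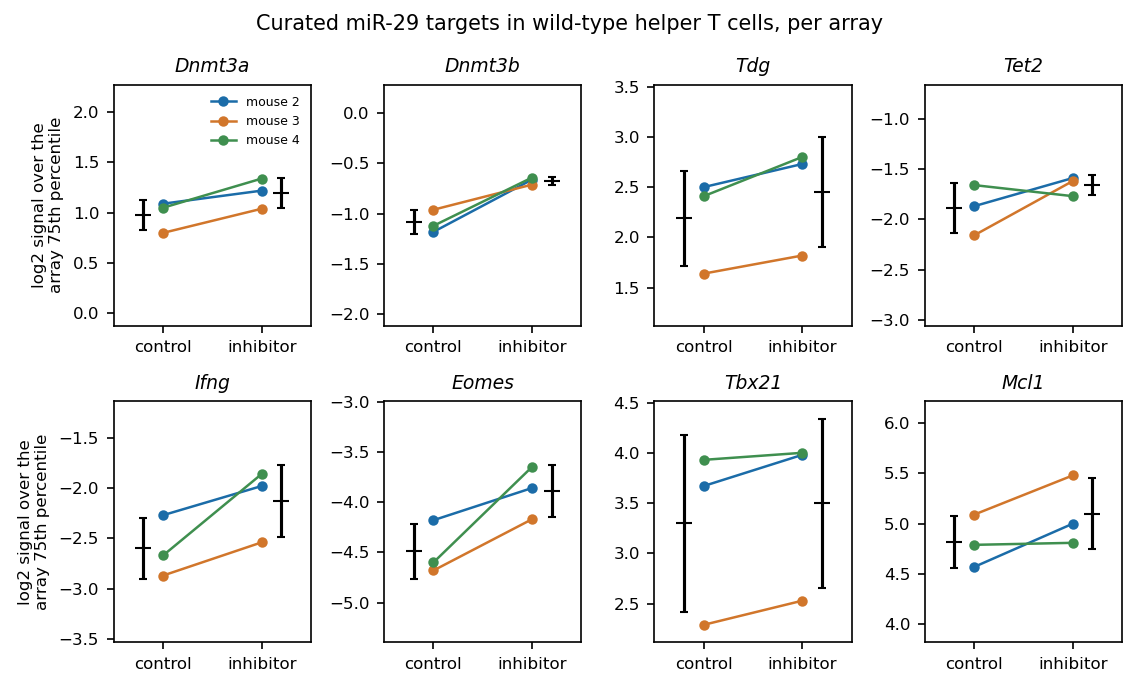
Level of 8 curated miR-29 targets on each wild-type array, as log2 signal over the array's 75th percentile (y axis), by inhibitor (x axis). Lines join the arrays of one mouse, and black bars give the group mean and SD (n = 3). The groups are separate for Dnmt3b and barely separate for Eomes, and mouse 4 goes down for Tet2.

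Targets that act in cell death, growth and survival had a median of 0.08, with 4 of 20 (20%) higher and 1 (5%) lower in 3 of 3 pairs, near the 14.7% and 8.87% of all genes. Mcl1, an anti-apoptotic BCL2 relative (chr3:95656944-95663179), was among the bright genes, at 4.57, 5.09 and 4.79 with the control and 5.0, 5.48 and 4.81 with the inhibitors. Mice 2 and 3 differed by 0.43 and 0.39, and mouse 4 by 0.02, for a mean of 0.28 ± 0.11. A second Mcl1 probe gave 0.27.

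The pro-apoptotic BH3-only genes showed the same unevenness between mice. Bmf differed by 0.59, 0.90 and 0.07 in mice 2, 3 and 4, with a mean of 0.52 ± 0.19 that was 0.13 on a second probe and 0.16 after normexp. Bcl2l11, which encodes BIM, differed by 0.29, 0.27 and -0.19, and Bbc3, which encodes PUMA, by 0.47, 0.43 and -0.29. For these genes mouse 4 was near 0 or below. The pore-forming Bak1 differed by 0.42, -0.07 and 0.22. Cdk6, a G1 kinase, had a mean of -0.23 ± 0.22 with mouse 3 at -0.88 and mouse 4 at 0.36. Vegfa, an angiogenic growth factor, went the other way, at -4.19, -3.13 and -3.60 with the control and -4.79, -4.08 and -4.01 with the inhibitors. Its difference was -0.65 ± 0.18, lower in 3 of 3 pairs, and the groups overlapped. Its 3 other probes gave -0.79, -0.26 and -0.01. Bbc3, Bak1 and Cdk6 were chosen for naming after their values were seen.

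Collagens and other matrix genes, the best known targets of the family in fibroblasts, had a median of -0.02 here. A mean above 0 was found for 6 of 16 (37.5%), against 54.8% of all genes. In 3 of 3 pairs 4 (25%) were higher and 1 (6.25%) was lower, against 14.7% and 8.87% of all genes. Several were dim: 11 of the 16 were well above background on all 6 arrays. Col1a1, the main fibrillar collagen gene, was at -5.41, -6.15 and -5.10 with the control and -5.13, -5.28 and -4.75 with the inhibitors, a difference of 0.50 ± 0.21. Its 2 other probes gave 0.32 and -0.20, and normexp gave -0.03, so its direction was not stable. The collagen gene Col15a1 differed by 0.25 ± 0.19.

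The remaining 24 targets had a median of 0.10. In 3 of 3 pairs 10 (41.7%) were higher and 1 (4.17%) lower, against 14.7% and 8.87% of all genes. Purg, a relative of the nucleic acid-binding Pur proteins, had the smallest p of all curated targets. It was at -0.70, -1.39 and -0.62 with the control and -0.03, -0.69 and -0.23 with the inhibitors. The difference was 0.59 ± 0.10, with pair differences of 0.67, 0.70 and 0.40, a second probe at 0.35, and an limma adjusted p of 0.902. Narf, which encodes a prelamin A-binding protein, differed by 0.26, 0.27 and 0.41, with a mean of 0.31 ± 0.08.

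Several targets chosen for naming after their values were seen showed the same range of sizes. Kdm5b, a histone H3K4 demethylase, differed by 0.44 ± 0.12, and Ing4, a chromatin reader, by 0.35 ± 0.13, both higher in 3 of 3 pairs. The transcriptional repressor Hbp1 differed by 0.41, 0.70 and -0.01, with a mean of 0.36 ± 0.14. Ctnnbip1, which inhibits beta-catenin, was at 0.24 ± 0.10 and the iron regulator Ireb2 at 0.23 ± 0.19, again higher in each pair. Mycn, a MYC family gene, was the clearest exception, at -4.82, -3.32 and -4.59 with the control and -5.49, -4.23 and -5.05 with the inhibitors. Its difference was -0.68 ± 0.11 on the brightest probe, in a fit that lacked 1 of the 12 arrays, with an limma adjusted p of 0.902. A second Mycn probe gave -0.11, and the authors' deposited log2 values gave -0.36.

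**Figure D3:**
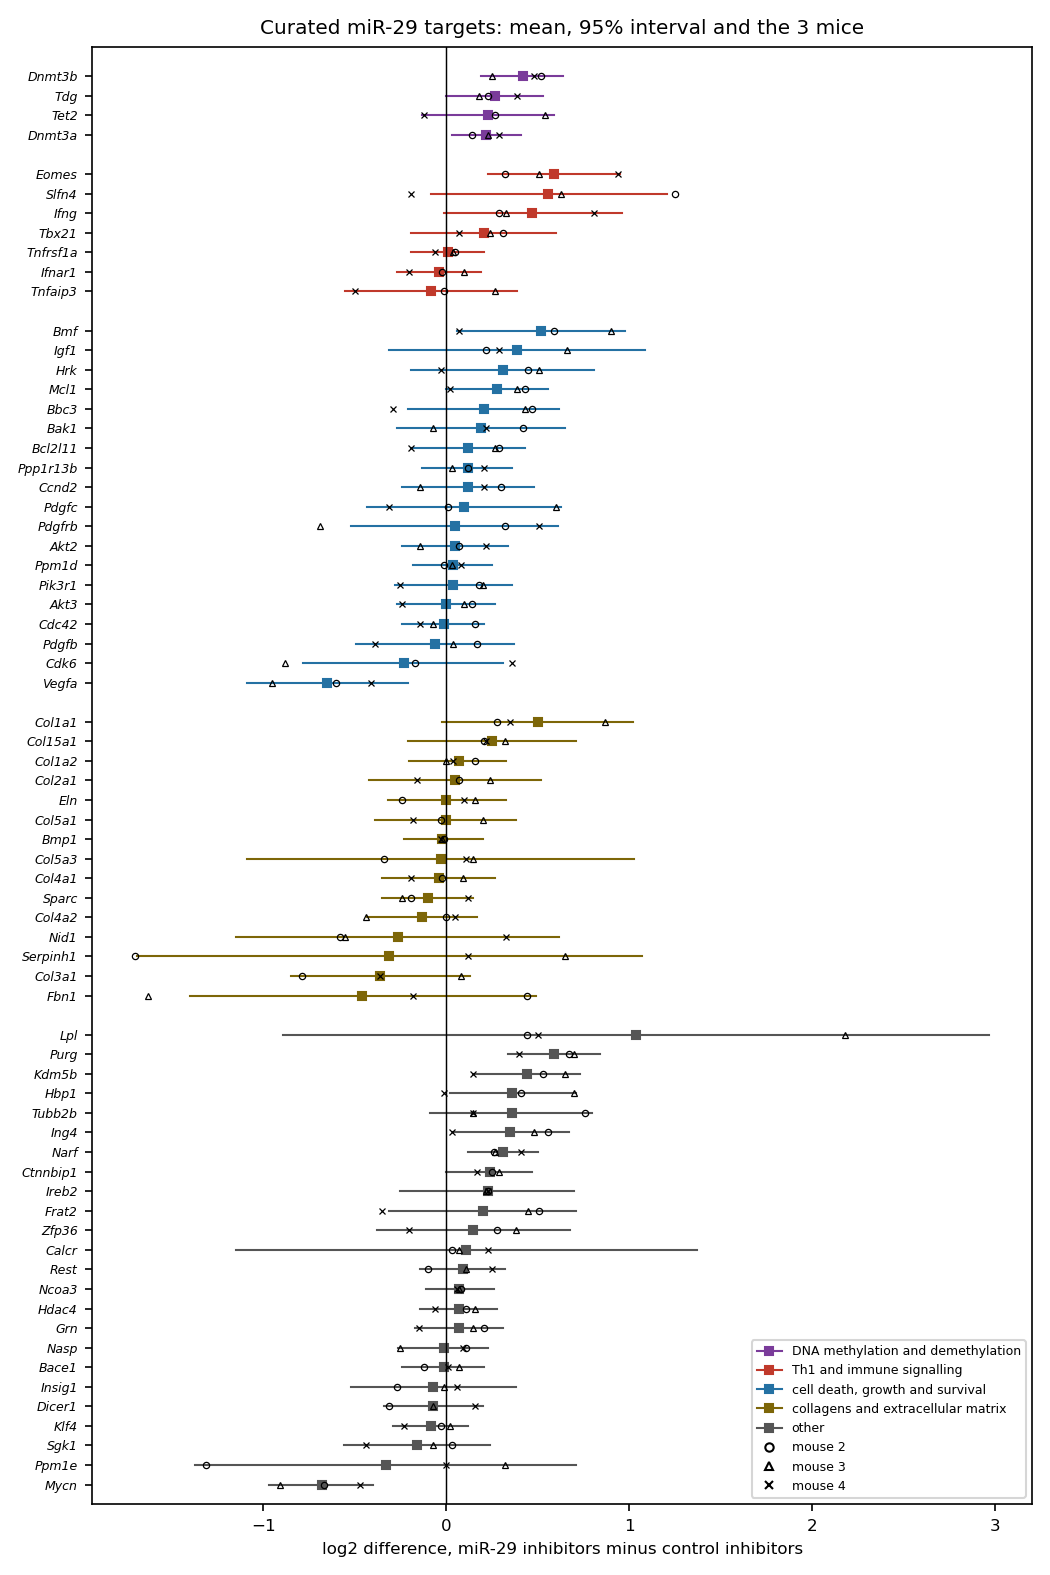
Log2 difference, inhibitor minus control (x axis), for 69 of the 71 measured curated miR-29 targets (rows), coloured by role. Squares are means, lines are 95% confidence intervals from limma before adjustment, and open symbols are the 3 mice. Most means lie between -0.5 and 0.5, and Purg, Dnmt3b and Eomes are among those with intervals above 0.

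Genes outside the target list gave larger differences, none past the adjusted threshold of the test. Klrg1, a receptor of terminally differentiated effector lymphocytes (chr6:122270596-122282833), had the smallest p of all genes. It was at -4.05, -5.23 and -3.67 with the control and -3.05, -3.92 and -2.57 with the inhibitors. Each mouse was higher by 1.0 to 1.30, while the mice differed enough for the groups to overlap. The difference was 1.13 ± 0.09 (2.20-fold), with an unadjusted limma p of 1.2e-05 and an adjusted p of 0.177, and it was 0.51 after normexp.

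Srd5a1, a steroid 5-alpha-reductase gene, was at -1.33, -1.03 and -1.37 with the control and -0.49, -0.30 and -0.44 with the inhibitors, with no overlap. Its difference was 0.83 ± 0.08 and its limma adjusted p 0.33. Mzb1, which encodes an endoplasmic reticulum chaperone of B and plasma cells, differed by 0.95 ± 0.10 with no overlap, and by 0.36 after normexp. Sgce, a sarcoglycan gene, differed by 0.83 ± 0.10, and by 0.47 after normexp.

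Downward differences were fewer in the main fit, with 1298 genes lower and 2144 higher in 3 of 3 pairs. After normexp 1522 were lower and 1415 higher, so this imbalance depended on the processing. Of the genes well above background and lower in 3 of 3 pairs, Nxt2, an mRNA export factor gene, had the smallest p, at -0.72 ± 0.13 with an limma adjusted p of 0.902. Ltf, which encodes the granule protein lactoferrin, was at -0.97 ± 0.20, and the ephrin gene Efnb2 at -0.39 ± 0.08 on 1 probe but at 0.98 on a dimmer one. Rell2 and Tmem65 were at -0.35 ± 0.08 and -0.33 ± 0.08. The groups overlapped for all 5 of these genes.

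The Th1 and cytotoxic list and the Th2 list leaned upward, with no gene past the adjusted threshold. Of 24 Th1 and cytotoxic genes, which include Ifng, Eomes and Tbx21, 15 (62.5%) were higher and 0 lower in 3 of 3 pairs, with a median of 0.21, against 14.7% and 8.87% of all genes. Gzma, a cytotoxic granule protease gene, was at 0.46, 1.71 and 2.22 with the control and 1.65, 2.39 and 3.09 with the inhibitors. Each mouse was higher, and the groups overlapped because mouse 2 was low on both arrays. The difference was 0.92 ± 0.13 (1.89-fold), with a limma adjusted p of 0.587. Prf1, which encodes perforin, was at -4.08, -3.80 and -3.87 with the control and -2.88, -3.38 and -2.76 with the inhibitors, a difference of 0.91 ± 0.17 with no overlap, and of 0.42 after normexp.

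Of 15 measured Th2 genes, 8 (53.3%) were higher and 0 lower in 3 of 3 pairs, against 14.7% and 8.87% of all genes. The median of the Th2 genes was 0.22. Il4, the signature Th2 cytokine gene, was at 0.83, 0.71 and 0.62 with the control and 1.29, 0.90 and 1.67 with the inhibitors, a difference of 0.57 ± 0.23. Il10, an anti-inflammatory cytokine gene, differed by 0.93, 0.60 and 1.48, with a mean of 1.0 ± 0.32. Maf, a transcription factor gene that drives both cytokines, differed by 0.84, 1.07 and 0.43, with a mean of 0.78 ± 0.22. For all 3 genes the groups did not overlap, and the limma adjusted p was 1.

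Other programs had medians between -0.04 and 0.05. Over all genes, 14.7% were higher and 8.87% lower in 3 of 3 pairs. Of 14 Th17, Treg and Tfh genes 3 (21.4%) were higher and 0 lower (median 0.02). Of 32 interferon-stimulated genes 7 (21.9%) were higher and 4 (12.5%) lower (median 0.05). In the last group Iigp1, an interferon-induced GTPase gene, was at 0.42 ± 0.17, and the chemokine gene Cxcl10 and the deubiquitinase gene Usp18 were at -0.64 ± 0.21 and -0.51 ± 0.14, and at -0.22 and -0.26 in the authors' deposited log2 values. Among 31 cell cycle genes 1 (3.23%) was higher and 3 (9.68%) lower (median -0.04). Among 19 p53 targets 4 (21.1%) were higher and 0 lower (median 0.03). Among 20 heat shock and unfolded protein genes 1 (5%) was higher and 0 lower (median 0.02). Perp and Zmat3, both apoptosis-related p53 targets, were at 0.56 ± 0.19 and 0.25 ± 0.08 with no overlap. Tox, a nuclear factor gene of CD4 T cell development, was at -0.53 ± 0.15 and lower in 3 of 3 pairs. Of 16 genes of microRNA biogenesis and effectors 2 (12.5%) were higher and 0 lower (median 0.00). Dicer1, which cuts microRNA precursors and is itself a listed target, was at -0.07 ± 0.11, Drosha at 0.08 ± 0.10 and Dgcr8 at -0.17 ± 0.12.

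Several markers of B cells and CD8 T cells were also higher, and their part in the effector gene values was not tested. Of 13 measured B cell markers 5 (38.5%) were higher and 0 lower in 3 of 3 pairs, against 14.7% and 8.87% of all genes. Their mean differences were above 0 for 9 (69.2%), against 54.8% of all genes, and ran from -0.58 to 1.83. Their median was 0.30, 11 were well above background on all 6 arrays, and Ebf1, a B lineage factor gene, was on none. The summed B cell marker level went from 0.48 to 1.26 in mouse 2, from 0.96 to 1.05 in mouse 3 and from 1.1 to 1.2 in mouse 4. Mouse 2 thus had most of the difference in this sum, which weighs bright markers most. The median difference of the 13 markers was 0.64, 0.34 and 0.13 in mice 2, 3 and 4. H2-Aa, an MHC class II gene (chr17:34282744-34287823), was at -5.80, -5.45 and -5.58 with the control and -4.06, -4.17 and -3.10 with the inhibitors, with no overlap. Its difference was 1.83 ± 0.27 (3.56-fold), with a limma adjusted p of 0.59, and it was 0.58 after normexp and 1.31 on a second probe. Ms4a1, which encodes CD20, differed by 1.45 ± 0.25 and Blnk, a B cell receptor adaptor gene, by 1.35 ± 0.18, and they were at 0.56 and 0.49 after normexp. Unlike the sum, Ms4a1 and Blnk differed most in mouse 3, and H2-Aa in mouse 4.

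Other B cell markers differed less. Cd74, the class II invariant chain gene, was at -2.09, -1.71 and -1.99 with the control and -0.80, -0.83 and -1.32 with the inhibitors, a difference of 0.95 ± 0.17. The class II gene H2-Ab1 had pair differences of 0.59, -0.47 and -0.20. It was the brightest of the B cell markers named here, at a mean of -0.08 on control arrays, so it weighed most of these in the sum. Cd74 and H2-Ab1 were named after their values were seen.

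Of 6 measured CD8 markers, 3 (50%) were higher and 0 lower in 3 of 3 pairs, against 14.7% and 8.87% of all genes. The median of the 6 was 0.46, and 4 were well above background on all 6 arrays. Cd8a, the CD8 coreceptor gene, was at -2.42, -2.68 and -2.65 with the control and -1.87, -2.12 and -2.06 with the inhibitors, with no overlap. The difference was 0.57 ± 0.12, and 0.54 and 0.36 on 2 other probes. The summed CD8 marker level went from 0.87 to 1.31 in mouse 2 and from 1.45 to 2.13 in mouse 3, and from 1.73 down to 1.62 in mouse 4. Cd4, named after its values were seen, differed by 0.13 ± 0.11. Of 6 measured NK cell markers 1 (16.7%) was higher, Gzma, and 2 (33.3%) were lower in 3 of 3 pairs (median 0.05). The lower ones were the NK receptor genes Klre1 and Ncr1, which were well above background on 1 and 2 of the 3 control arrays and on 0 of 3 inhibitor arrays. The summed NK marker level, at 0.56, 1.74 and 2.26 with the control and 1.73, 2.42 and 3.11 with the inhibitors, was nearly that of Gzma alone. The summed levels of 12 myeloid and of 8 erythroid and platelet markers ranged from 6.63 to 7.27 and from -1.18 to -0.57 on control arrays, and from 6.97 to 7.44 and from -1.13 to -0.73 on inhibitor arrays.

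**Figure D4:**
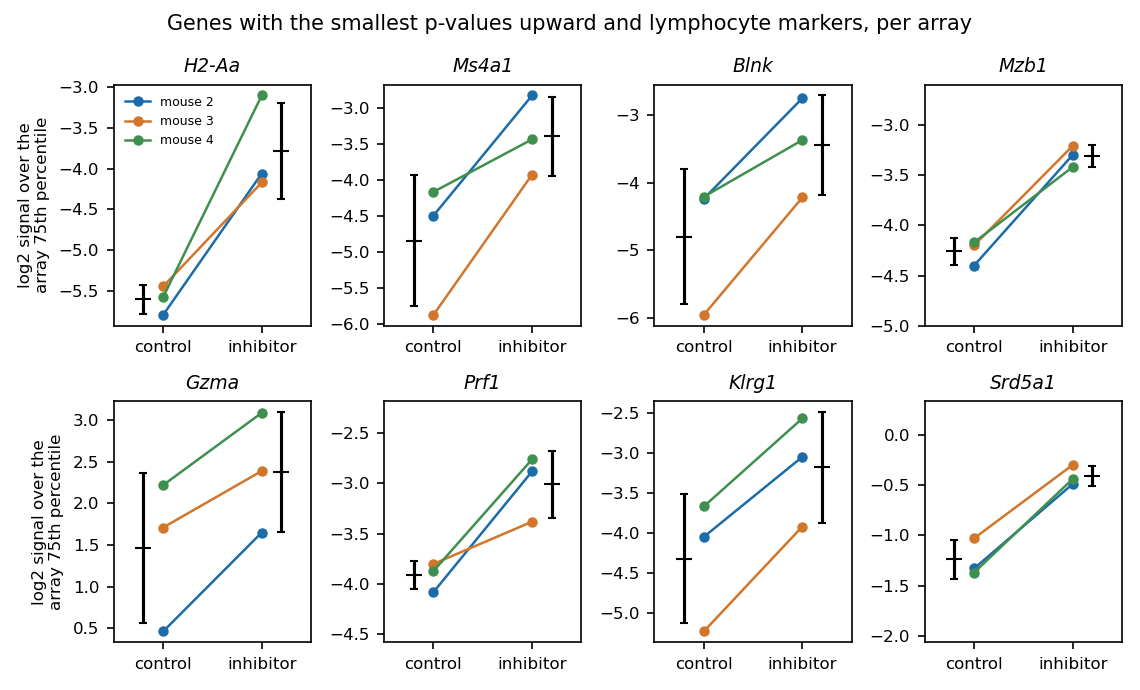
Level of 8 genes on each wild-type array, as log2 signal over the array's 75th percentile (y axis), by inhibitor (x axis). Lines join the arrays of one mouse, and black bars give the group mean and SD (n = 3). Each gene is higher with the inhibitors in all 3 mice, and the groups overlap for Blnk, Gzma and Klrg1.

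The inhibitor comparison was last set against the opposite manipulation, in which DGCR8-deficient cells, which make few microRNAs of their own, received miR-29b. The comparisons share no array. How Dgcr8 was removed is not given in the sources used here. Its own level, on a probe whose place relative to the deletion was not determined, spanned -1.24 to -0.15 in the 6 deficient samples and -0.16 to 1.0 in the 6 wild-type ones, so the ranges touched. Of all genes, 1388 (9.44%) were lower with miR-29b at an limma adjusted p under 0.05, and 23 of the 71 curated targets were among them. Of these 23 targets, 12 (52.2%) were higher in 3 of 3 pairs with the inhibitors and 1 (4.35%) was lower, with a median of 0.23. Of the 44 targets past no threshold with miR-29b, 10 (22.7%) were higher in 3 of 3 pairs, with a median of 0.05, and of the 4 targets higher with miR-29b, 2 were. Among 1380 genes of any kind lower with miR-29b and measured in all pairs, 23.3% were higher in 3 of 3 pairs with the inhibitors, as were 18% of 1925 genes higher with miR-29b. The difference between these shares was not tested.

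For several targets with large differences under miR-29b, the inhibitor differences were several times smaller. Dnmt3b was at -1.96 ± 0.09 with miR-29b against 0.42 with the inhibitors, and Ifng at -2.94 ± 0.20 against 0.47. Tdg was at -1.83 ± 0.11 against 0.27, Bak1 at -1.84 ± 0.19 against 0.19 and Narf at -1.40 ± 0.08 against 0.31. Other targets were closer in size, with Purg at -0.65 against 0.59, Hbp1 at -0.63 against 0.36 and Eomes at -1.11 against 0.59. Mcl1 and Kdm5b, at -0.03 ± 0.11 and 0.20 ± 0.12 with miR-29b, were not among the genes called lower. Srd5a1, which is on no list, was at -1.55 ± 0.08 with miR-29b against 0.83 with the inhibitors.

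The inhibitor effect minus the miR-29b effect was tested in the same fit. It passed an adjusted p of 0.05 for 904 of 14704 genes (6.15%), and for 521 (3.54%) the inhibitor effect lay above that of miR-29b. Among the curated targets 18 passed, 17 of them in that direction. The difference was 3.41 for Ifng, 2.37 for Dnmt3b, 1.71 for Eomes, 1.22 for Dnmt3a and 1.19 for Tbx21, with limma adjusted p-values of 0.00956, 0.00749, 0.0172, 0.0115 and 0.0416. A gene can pass on its miR-29b difference alone, so a pass does not measure the inhibitor effect. Ifng was at -2.94 with miR-29b and 0.47 with the inhibitors, and Dnmt3b at -1.96 and 0.42. The count of 904 genes rested on the pairing and on single wild-type mice: it was 24 without the mouse as a block. Without both wild-type arrays of mouse 2, 3 or 4, and with all DGCR8-deficient arrays kept, it was 0, 57 and 0.

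**Figure D5:**
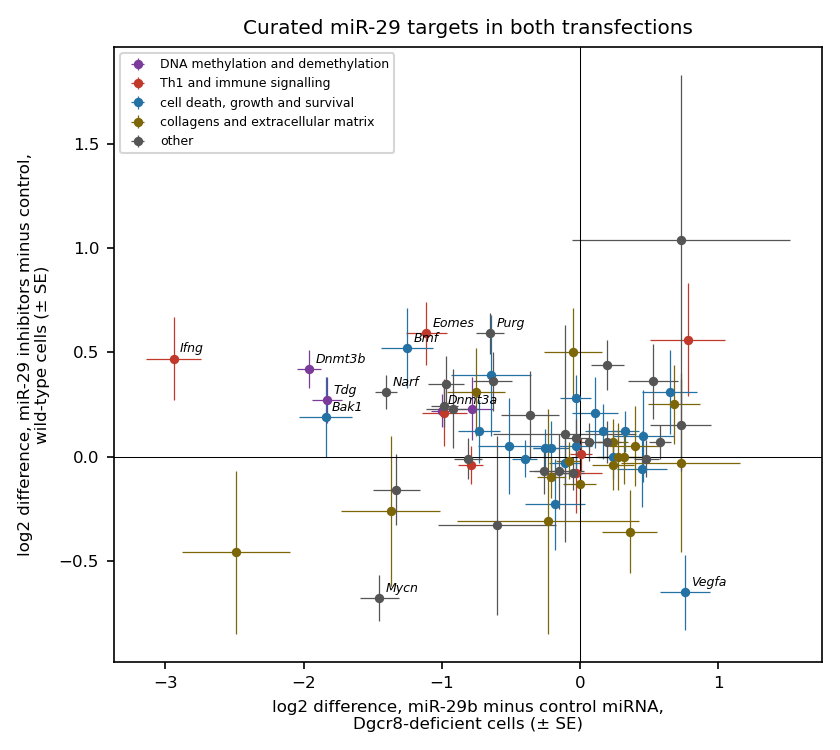
Log2 difference with miR-29 inhibitors in wild-type cells (y axis) against that with miR-29b in DGCR8-deficient cells (x axis) for the 71 measured curated targets, coloured by role, with standard errors as bars. Targets such as Ifng, Dnmt3b and Tdg lie far to the left and a little above 0, and Mycn lies below 0 on both axes.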

How the data were processed

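Total RNA was labelled with Cy3 and hybridised to Agilent whole mouse genome 4x44K arrays, per the labels' protocols. Per the file headers, the deposited spot intensity came from Feature Extraction 10.5.1.1 with local background removed. A deposited set of log2 values, for which the submitters' processing notes name limma, ranked probes as the median spot signal before background subtraction does. It served as an alternative, and its normalization is not given in the sources used here.

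Control spots (1639 of 45018) and outlier spots (69 to 193 per wild-type array) were left out, and 0 spots were saturated. Processed signals were logged (base 2) and centred on each array's own 75th percentile (940.3 to 1530 units on wild-type arrays), and spots of a probe were averaged. Probes well above background on at least 3 of 12 arrays were kept (32199 of 41174). Of these, 21082 were given a symbol through their RefSeq accession, and the brightest probe stood for each of 14704 genes. The number of arrays limits the precision.

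All 12 arrays entered one limma fit (limma 3.58.1, R 4.3.3, data.table, version 1.17.8), with the mouse as a block and a treatment effect for each genotype. The Benjamini-Hochberg adjustment ran over all genes tested. The fit was tested on simulated data. The series text calls the mice biological replicates and splits the cells of each DGCR8-deficient mouse between both oligonucleotides. For wild-type mice the pairing rests on the numbers in the sample titles and on residual expression, in which same-numbered arrays correlated at 0.446, 0.726 and 0.418 and all others at 0.291 or less. Shared mouse, slide and scan day cannot be told apart in these correlations.

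The comparison, the gene lists and the rule for naming genes were chosen with earlier results of these data known. The rule took key genes of the pathway, at most 3 genes per list by smallest p among those moving one way in 3 of 3 pairs, and the 6 smallest p in each direction among genes well above background on all 6 arrays. The alternatives were no block, slide or scan day as a block, the 6 wild-type arrays alone, normexp background correction (offset 50, on the median signals), quantile scaling, the authors' log2 values, no filter, a stricter filter, the mean of probes, a trended robust fit, and leaving out mice or arrays. Marker sums are log2 of summed linear levels. Results for some genes that the rule named are not reported here.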

Additional observations from a re-analysis of the deposited data

How the results depend on the processing

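The count of genes past the adjusted threshold was 0 under all settings run except 2. It was 1 when the test was run on the 12654 genes with any probe well above background on all 6 arrays (Klrg1, at a limma adjusted p of 0.0375), and 7 with a trended and robust fit, which called Blnk, Gzma, H2-Aa, Klrg1, Mef2c, Mzb1 and Srd5a1, all higher with the inhibitors, at adjusted p of 0.0266 to 0.0309. Mef2c was well above background on 0 of 3 control arrays and 3 of 3 inhibitor arrays. It was 1.58-fold higher with control values raised to the dimmest signal that cleared background on each array. Its difference was 0.36 in the authors' log2 values and -0.11 after normexp, so its size and direction were not stable. With no replicate block, genes with an unadjusted p under 0.05 numbered 61, and 126 from the 6 wild-type arrays alone. They numbered 162 with scan day as a block and 1031 over all kept probes (chosen after seeing the data). With no block they numbered 69, 103 and 99 without the control array of mouse 2, 3 or 4, and 45, 116 and 72 without the inhibitor array. They ranged from 433 to 845 without both arrays of one wild-type mouse.

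After normexp, genes higher in all pairs numbered 1415 and genes lower 1522. Over the 2 pairs left without one mouse, they numbered 3666 to 4850 and 2639 to 3146. Curated targets higher in all pairs were 15 after normexp and 30 to 41 without one mouse, and their median was 0.01 after normexp. The test of the inhibitor effect against the miR-29b effect called 24 genes with no replicate block, 588 with slide and 345 with scan day as a block. It called 410 with no filter, 1606 from the authors' table, 1560 with the stricter filter and 2023 with the trended fit. Without both arrays of one wild-type mouse it called 0 to 57.

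Settings that changed only the block, the trend or the arrays used for the spread left the differences as they were, so direction was fixed there. No gene was past the threshold in the main fit, so a gene could change side only by passing it. Of 1073 values of 72 named genes under 15 settings, 1050 kept direction and side of the threshold, 8 passed it and 15 changed sign. After normexp these were Col1a1 (-0.03), Ccr6 (-0.02), Il21 (-0.18), Gzmm (-0.02), Itgax (-0.20) and Mef2c. Cd3g was at -0.03 after quantile scaling and -0.05 in the authors' table, where H2-Ab1 was at 0.01. With the mean of probes Dicer1 was at 0.02 and Efnb2 at 0.30. Without one mouse, Dicer1 ranged from -0.19 to 0.05, Cdk6 from -0.53 to 0.09 and H2-Ab1 from -0.33 to 0.20. The cause was not tested. Classes of genes by seed sites in 3' untranslated regions were not run.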
